A study of Mus musculus with 6 samples.

Results

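The collagen chain genes encode the alpha chains that assemble in threes into the collagens of the extracellular matrix. They were taken as every row of the deposited gene table whose symbol is Col, a number, a and a number, which gave 44 genes of 54532 rows. The counts came from 6 mice at postnatal day 3, 3 control (WT) and 3 Dok6 mutant (Dok6 KO), both on a C57BL/6 background, and the tissue is labelled sciatic nerve. The mutant carries a germline deletion of exon 3 of Dok6, made with EIIA-cre, a Cre that acts in the early embryo, so the deletion was not limited to a cell type. There was 1 library per mouse, the sexes were not distinguished, and the controls were described as littermates without saying which mice shared a litter. Dok6 encodes an adaptor protein that binds activated receptor tyrosine kinases, and the series asked whether genes of myelination change in the mutant nerve.

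Each collagen chain holds stretches of Gly-X-Y triplets, each opened by glycine, the only residue small enough to sit at the centre of the triple helix. Fibrillar chains form the tension-bearing fibres of the epineurium and endoneurium, the layers of connective tissue around and within a nerve. Type IV chains form the sheet of the basal lamina that surrounds each Schwann cell and blood vessel, type VI chains form beaded filaments next to it, and fibril-associated chains sit on the surface of fibrils.

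The repeat can be read in the gene sequence. The longest uninterrupted run of triplets with a glycine codon (GGN, N being any base) in the coding sequences of GENCODE M21 was 216 to 344 triplets in the 11 fibrillar chains, 30 to 66 in the 8 basement membrane chains, 37 to 87 in the 9 network chains, 32 to 113 in the 9 fibril-associated chains and 23 to 75 in the 7 other chains. Runs of 6 triplets or more covered 73.3% of the codons of Col1a1 but 8.2% of those of Col12a1, most of which is not collagenous. A coding exon of 54 bases, that is 6 whole triplets, occurred 21 to 32 times in each fibrillar chain, 4 to 28 times in each fibril-associated chain and at most 3 times in each basement membrane and network chain. The first such exon of 5 chains that the results below turn on is shown 5′ to 3′ on GRCm38, to let the shared repeat and the differing bases between glycines be compared, with the glycine codon that opens each triplet in capitals. A glycine codon within a triplet, as in the last triplet of Col1a1, is in lower case.
Col1a1 (chr11:94939904-94939957, plus strand): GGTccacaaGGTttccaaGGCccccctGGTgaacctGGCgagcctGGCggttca
Col1a2 (chr6:4515481-4515534, plus strand): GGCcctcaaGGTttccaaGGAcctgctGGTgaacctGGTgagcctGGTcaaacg
Col15a1 (chr4:47292320-47292373, plus strand): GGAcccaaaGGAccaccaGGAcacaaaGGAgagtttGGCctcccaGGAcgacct
Col6a1 (chr10:76719623-76719676, minus strand): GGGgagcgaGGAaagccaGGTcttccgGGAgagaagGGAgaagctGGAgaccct
Col28a1 (chr6:8166662-8166715, minus strand): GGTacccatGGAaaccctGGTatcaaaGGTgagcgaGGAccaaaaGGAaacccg

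The libraries held 17699904 to 18678170 counts, and 3 counts, taken as the smallest detectable level, corresponded to 0.155 to 0.172 counts per M (CPM, scaled by TMM factors), a floor that covers counting error only. Dok6 itself was at 17.8, 11.9 and 17.5 CPM in control mice 1 to 3, against 7.25, 5.77 and 7.14 CPM in Dok6 mutant mice 1 to 3, and fell by 1.23 on the log2 scale (SE 0.20, edgeR adjusted p = 0.0118). The labels give the tissue as sciatic nerve and the cell type as nerve cell, and this was checked against marker genes. Markers of the central nervous system were present in every library, among them Slc6a5, the transporter of glycinergic neurons, at 224, 263 and 240 CPM in controls and 211, 176 and 232 CPM in the Dok6 mutant mice. The summed level of the 12 central nervous system markers lay between 2112 and 3492 CPM over the 6 libraries, and that of the 9 Schwann cell markers analysed was 444, 278 and 1818 CPM in controls and 1401, 4494 and 562 CPM in mutants, above the central nervous system sum in Dok6 mutant mouse 2 only. Nerve alone should lack the neuronal markers of the central nervous system, so the values below are those of libraries labelled sciatic nerve. In such whole-tissue RNA, fewer cells of a type and less RNA per cell cannot be told apart.

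All 44 chains passed the filter on low counts, and 14 of them rose in the Dok6 mutant, whereas 0 fell (edgeR quasi-likelihood test, Benjamini-Hochberg adjusted p below 0.05 over 17099 genes). Of all genes tested, 8.62% rose and 6.01% fell by the same rule. At an unadjusted p below 0.05, 25 chains were higher and 1 was lower, against 18% and 15.5% of all genes, and DESeq2 also gave 0 chains lower. The 14 were Col1a2, Col5a1, Col5a2 and Col27a1 of the fibrillar chains, Col15a1 of the basement membrane chains, Col6a1, Col6a2, Col6a3, Col8a1 and Col8a2 of the network chains, Col12a1, Col14a1 and Col16a1 of the fibril-associated chains, and Col28a1. A log2 fold change above 1 was reached by 11 of them, against 3.58% of all genes, and a log2 fold change above 2, the threshold of the study's methods, by Col15a1 and Col28a1, against 1.08% of all genes. The log2 fold change was positive in 38 chains and negative in 6, with a median of 0.97 against 0.01 over all genes tested. Of all genes, 51.4% had a positive value. In 21 chains every Dok6 mutant mouse lay above every control mouse, a pattern that 19.6% of all genes showed, and in 1 chain, Col25a1, every Dok6 mutant mouse lay below, as in 18.7% of all genes.

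The number of chains called depended on single mice. Without control mouse 2, only Col27a1 was called, and over all genes the share that rose was then 0.318%. The count was 6 without Dok6 mutant mouse 1 (3.99% of all genes rose), 7 without Dok6 mutant mouse 2 (3.16%), 10 without control mouse 3 (5.72%), 16 without Dok6 mutant mouse 3 (9.59%) and 21 without control mouse 1 (5.56%). Col27a1 was called in all 6 fits that left out a mouse, Col12a1, Col15a1, Col28a1 and Col6a2 in 5, and Col1a2, Col5a1, Col5a2, Col14a1 and Col8a1 in 2, with Col6a1 in 4 and Col6a3, Col8a2 and Col16a1 in 3.

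**Figure D1:**
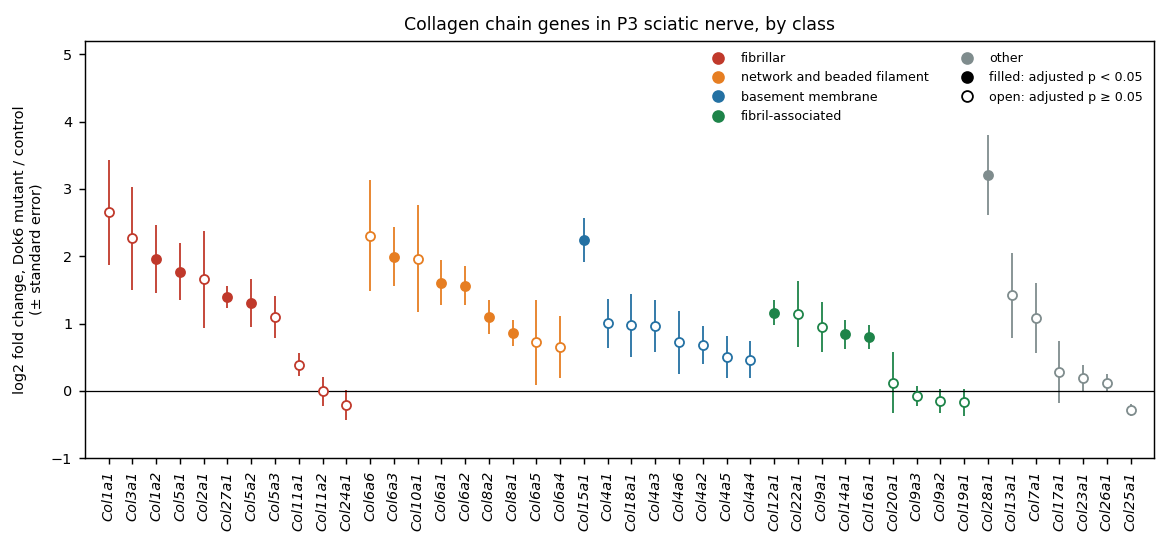
Log2 fold change of Dok6 mutant over control for each of the 44 collagen chain genes (y axis, points, with the standard error as bars), ordered within each class along the x axis, with filled points for adjusted p below 0.05. All 14 filled points lie above 0, and the 6 chains below 0 are all open.

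Collagen counts made up 0.261%, 0.135% and 0.0972% of the counts in control mice 1 to 3 and 0.406%, 0.515% and 0.406% in Dok6 mutant mice 1 to 3. The genotypes did not overlap, but the control mice differed among themselves 2.68-fold at the extremes. Control mouse 1 was the highest control in 39 of the 44 chains, compared with 34.3% of all genes, and control mouse 3 was the lowest in 27. The median ratio of highest to lowest control was 2.14 over the chains and 1.25 over all genes, and among the Dok6 mutant mice it was 1.61 against 1.25. The make-up of the collagen counts also differed between the genotypes. Col1a1, Col1a2 and Col3a1 together held 34, 22 and 10.7% of the collagen counts in control mice 1 to 3 and 47.6, 54 and 42.5% in Dok6 mutant mice 1 to 3. Per kilobase of gene length, Col1a1 was the most abundant chain in all 3 Dok6 mutant mice, whereas Col4a1 was in control mice 1 and 2 and Col4a2 in control mouse 3.

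Of the fibrillar chains, 4 of 11 rose, against 8.62% of all genes, and the median log2 fold change of the class was 1.39. Col1a1 (chr11:94936224-94953042 on GRCm38), the alpha 1 chain of type I collagen, was at 272, 73.1 and 17.6 CPM in controls and 622, 1052 and 605 CPM in mutants. Its log2 fold change was 2.65 ± 0.78 (SE, adjusted p = 0.0537), so it did not pass the threshold in edgeR although every Dok6 mutant mouse lay above every control mouse. It passed in DESeq2 (adjusted p = 0.0359) and in limma voom (adjusted p = 0.0281), and its edgeR log2 fold change ranged from 2.14 without control mouse 3 to 4.07 without control mouse 1, with adjusted p of 0.0252 to 0.189 over the 6 fits that left out a mouse. The control mice spanned a 15.4-fold range, with control mouse 1 the highest and control mouse 3 the lowest. Col1a2, the partner of Col1a1 in type I collagen, was at 351, 136 and 73.9 CPM in controls and 583, 1001 and 597 CPM in mutants and rose by a log2 fold change of 1.96 ± 0.50 (SE, adjusted p = 0.036). Col3a1, which forms thin fibrils mixed with type I, was at 277, 94.5 and 15.3 CPM in controls and 665, 698 and 497 CPM in mutants, with a log2 fold change of 2.27 ± 0.77 (SE, adjusted p = 0.0778). With a mouse left out, the edgeR log2 fold change of Col3a1 ranged from 1.74 to 3.50, with adjusted p of 0.0346 to 0.239. Its control mice spanned an 18.1-fold range, and again the genotypes did not overlap. An unnamed gene model overlaps an exon of Col3a1 on the same strand, so reads there could be assigned to either.

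Type V chains join type I fibrils and set their diameter, and 2 of the 3 rose. Col5a1 was at 61.8, 22.6 and 16.9 CPM in controls and 112, 137 and 96.7 CPM in mutants and rose by a log2 fold change of 1.77 ± 0.42 (SE, adjusted p = 0.0289). Col5a2 was at 52, 26.1 and 17.4 CPM in controls and 71, 101 and 63.9 CPM in mutants and rose by 1.31 ± 0.36 (SE, adjusted p = 0.043). DESeq2 did not call Col5a2 (adjusted p = 0.0586), and it was called under 7 of 13 alternatives. In Col5a1 and Col5a2, control mouse 1 came nearest to the Dok6 mutant mice without reaching them. Col5a3, another type V chain, was at 11.7, 8.87 and 6.85 CPM in controls and 13.8, 29.8 and 15.3 CPM in mutants, and its log2 fold change of 1.10 ± 0.32 (SE, adjusted p = 0.0502) missed the threshold narrowly, while DESeq2 called it (adjusted p = 0.00216). Col27a1, a fibrillar chain with a shorter helix, was at 10.1, 7.38 and 7.88 CPM in controls and 23.9, 23 and 19.5 CPM in mutants and rose by 1.39 ± 0.16 (SE, adjusted p = 0.00635). This was the smallest adjusted p of any chain, and the 3 control mice lay within 1.37-fold of each other.

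Col2a1, the main fibrillar collagen of cartilage, was at 21.9, 8.99 and 5.65 CPM in controls and 9.58, 78 and 27.8 CPM in mutants. The genotypes overlapped, since Dok6 mutant mouse 1 lay below control mouse 1 and Dok6 mutant mouse 2 was far above the rest, and the log2 fold change was 1.66 ± 0.72 (SE, adjusted p = 0.144). Ibsp, a bone matrix protein, was also highest in Dok6 mutant mouse 2, at 3.84, 0.0572 and 0 CPM in controls and 0.207, 17.1 and 2.43 CPM in the Dok6 mutant mice. Of the 11 cartilage and bone markers 6 could be tested and 1 rose, against 8.62% of all genes. It was the cartilage transcript Cnmd, at 0.286, 0.229 and 0.171 CPM in controls and 0.673, 3.49 and 2.59 CPM in mutants (adjusted p = 0.02). Acan, the main proteoglycan of cartilage, was at 5.1, 2.86 and 4.05 CPM in controls and 8.6, 12.3 and 5.08 CPM in mutants (adjusted p = 0.0587) and Sp7, a factor of bone-forming cells, at 0.745, 0.744 and 0.685 CPM in controls and 1.14, 3.16 and 0.899 CPM in mutants (adjusted p = 0.128), both highest in Dok6 mutant mouse 2. Hapln1, a link protein of cartilage and the most abundant of the list, was at 12.5, 14.1 and 23.4 CPM in controls and 13.1, 20.2 and 8.09 CPM in mutants, with a log2 fold change of -0.28 (adjusted p = 0.6), and Ucma was at 0.63, 0.343 and 0.742 CPM in controls and 1.04, 0.545 and 0.212 CPM in mutants (adjusted p = 0.951). Of the 5 that could not be tested, Matn1, Matn3, Ihh and Bglap stayed below 1 CPM in every library, with all 3 mutants below all 3 controls for Bglap, and Dmp1 was at 1.55, 0.229 and 0.457 CPM in controls and 0.155, 1.63 and 0.476 CPM in mutants. The part of cartilage or bone in these values was not tested. Col11a1 was at 62.1, 49.2 and 47.7 CPM in controls and 52.7, 84.1 and 72 CPM in mutants, with a log2 fold change of 0.39 ± 0.17 (SE, adjusted p = 0.153). Col11a2 was at 61, 41.5 and 51.6 CPM in controls and 40.3, 69.9 and 43.2 CPM in mutants, and its log2 fold change of -0.01 ± 0.22 (SE, adjusted p = 0.987) changed sign when single mice were left out. These chains of type XI collagen and Col24a1, at 3.49 to 5.88 CPM over the 6 libraries with a log2 fold change of -0.21, were the fibrillar chains nearest to 0.

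**Figure D2:**
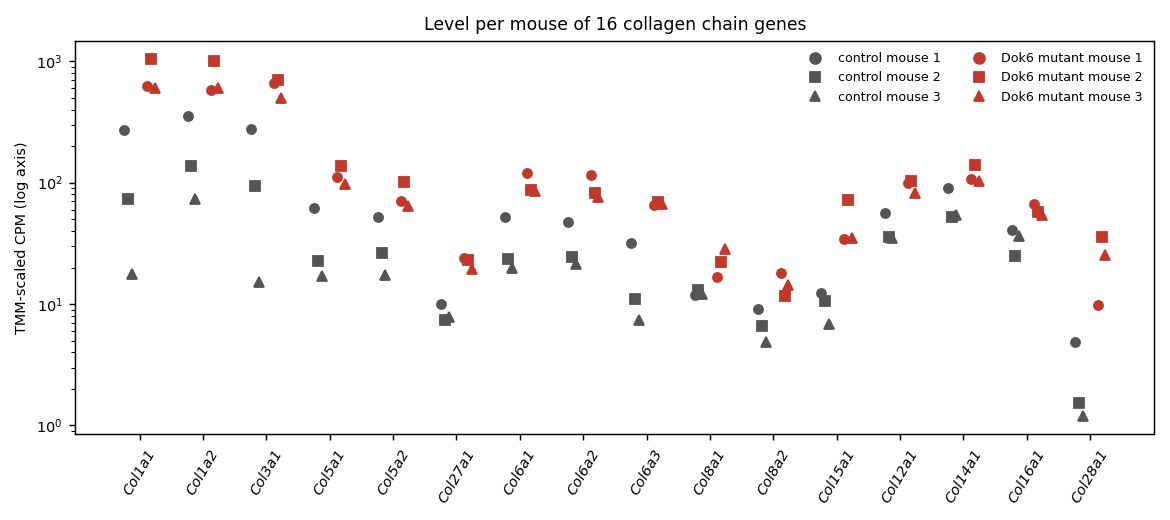
TMM-scaled CPM on a log axis (y) of the 14 chains that rose together with Col1a1 and Col3a1 (x), with a point for each mouse, grey for control and red for Dok6 mutant. Every red point lies above every grey point of the same chain, and the grey points of Col1a1 and Col3a1 are spread most widely.

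Of the network chains 5 of 9 rose, against 8.62% of all genes, with a median log2 fold change of 1.56. Type VI collagen, which is made by Schwann cells and fibroblasts, is built from Col6a1, Col6a2 and a larger chain, usually Col6a3. Col6a1 (chr10:76708792-76726168) was at 52.1, 23.4 and 19.9 CPM in controls and 120, 86.2 and 85 CPM in mutants and rose by a log2 fold change of 1.61 ± 0.33 (SE, adjusted p = 0.0211). Col6a2, which lies next to Col6a1 on chromosome 10 on the same strand, was at 47.2, 24.3 and 21.2 CPM in controls and 115, 82.8 and 75.8 CPM in mutants and rose by 1.56 ± 0.29 (SE, adjusted p = 0.0166). Col6a3 on chromosome 1 was at 32.1, 11 and 7.42 CPM in controls and 65.6, 69 and 67.1 CPM in mutants and rose by 1.99 ± 0.44 (SE, adjusted p = 0.025), with Dok6 mutant mice within 1.05-fold of each other and control mice over a 4.33-fold range. In all 3 genes control mouse 1 was the highest control and still lay below every Dok6 mutant mouse.

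Col6a6, another chain that can take the place of Col6a3, was at 2.12, 1.83 and 1.83 CPM in controls and 23.3, 3 and 2.33 CPM in mutants. Its log2 fold change of 2.31 ± 0.83 (SE, adjusted p = 0.0904) rested on Dok6 mutant mouse 1, and without that mouse it was 0.46 (adjusted p = 0.346). That mouse also held the highest summed level of the 9 mural cell markers, at 637, 318 and 393 CPM in mutants and 301, 253 and 215 CPM in controls. Among the smooth muscle transcripts of that list, Acta2 was at 3.15, 6.07 and 1.2 CPM in controls and 114, 6.54 and 13.9 CPM in mutants. Myh11 was at 1.72, 2.75 and 1.83 CPM in controls and 85.6, 4.85 and 5.29 CPM in mutants, and Cnn1 was at 0.516, 0.744 and 0.742 CPM in controls and 11.4, 0.545 and 0.582 CPM in mutants. All 3 were highest in Dok6 mutant mouse 1. By contrast, Tagln was at 0.974, 0.63 and 0.685 CPM in controls and 0.363, 0.272 and 0.582 CPM in mutants, with all 3 mutants below all 3 controls. None of these 4 passed the test (adjusted p = 0.0502, 0.0502, 0.138 and 0.189), and the part of other tissue in Col6a6 was not tested. Col6a4 and Col6a5, at 0.458 to 4.76 CPM, were also highest in Dok6 mutant mouse 1 and did not pass the test. Near-identical stretches occur between Col6a5 and Col6a6, so their counts could be split by the counting. Type VIII chains form hexagonal lattices under vascular endothelium and elsewhere. Col8a1 was at 11.9, 13.2 and 12 CPM in controls and 16.7, 22.3 and 28.6 CPM in mutants and rose by 0.86 ± 0.19 (SE, adjusted p = 0.0251). Col8a2 was at 9.05, 6.58 and 4.91 CPM in controls and 18, 11.6 and 14.4 CPM in mutants and rose by 1.10 ± 0.25 (SE, adjusted p = 0.0256). Col10a1, the network collagen of hypertrophic cartilage, ranged from 0.286 to 0.802 CPM in controls, against 0.466, 3.87 and 1.11 CPM in mutants, with a log2 fold change of 1.97 ± 0.79 (SE, adjusted p = 0.121). With a mouse left out, the edgeR log2 fold change of Col10a1 ranged from 0.77 to 2.63, with adjusted p of 0.0702 to 0.486.

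Of the basement membrane chains, 1 of 8 rose, which is near the 8.62% of all genes. All 8 had a positive log2 fold change, against 51.4% of all genes, and the median was 0.84. The chain that rose was Col15a1 (chr4:47208161-47313167), which links the basal lamina to the fibrils beneath it and is made in peripheral nerve. It was at 12.4, 10.6 and 6.91 CPM in controls and 34.4, 72.6 and 34.8 CPM in mutants and rose by a log2 fold change of 2.24 ± 0.33 (SE, adjusted p = 0.00968). Dok6 mutant mouse 2 was the highest, and the other mutant mice lay close together, clear of the control mice. Col4a1, the main type IV chain, was at 343, 217 and 105 CPM in controls and 351, 422 and 562 CPM in mutants, with a log2 fold change of 1.01 ± 0.36 (SE, adjusted p = 0.0924). Control mouse 1 and Dok6 mutant mouse 1 were nearly equal, and control mouse 3 was far lower. Col4a2, the partner of Col4a1, was at 262, 170 and 110 CPM in controls and 237, 288 and 346 CPM in mutants, with overlapping genotypes and a log2 fold change of 0.68 ± 0.28 (SE, adjusted p = 0.124). Col18a1, the source of endostatin, was at 66.9, 23.5 and 15.4 CPM in controls and 62.6, 54.2 and 91.4 CPM in mutants, with a log2 fold change of 0.98 ± 0.47 (SE, adjusted p = 0.182). With a mouse left out, the edgeR log2 fold change of Col18a1 ranged from 0.62 to 1.84, with adjusted p of 0.0246 to 0.431. The X-linked Col4a5 and Col4a6 were at 58.2, 28.7 and 24.4 CPM in controls and 67.3, 40.4 and 49.8 CPM in mutants, and at 15.7, 5.5 and 5.6 CPM in controls and 17, 7.46 and 19.6 CPM in mutants, with log2 fold changes of 0.50 and 0.72 and adjusted p of 0.302 and 0.313. Col4a3 and Col4a4, whose product is known from the kidney glomerulus, lay between 0.401 and 3.33 CPM and did not pass the test.

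The type IV genes lie in head-to-head pairs on opposite strands. The annotated starts of Col4a1 and Col4a2 overlap by 22 bases on chromosome 8, those of Col4a3 and Col4a4 are 71 bases apart on chromosome 1 and those of Col4a5 and Col4a6 are 1308 bases apart on chromosome X. Whether counting used strand is not given in the sources used here, and without strand the reads in such an overlap cannot be told apart. In all, an exon of 10 of the 44 chains overlaps an antisense gene, Col5a1 and Col15a1 among those that rose.

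Of the fibril-associated chains, 3 of 9 rose, against 8.62% of all genes, with a class median of 0.80. Col12a1, a long chain that bridges fibrils under load, was at 56.5, 35.7 and 35.2 CPM in controls and 99.1, 103 and 82.4 CPM in mutants and rose by a log2 fold change of 1.16 ± 0.19 (SE, adjusted p = 0.0119). Col14a1, which binds fibrils through decorin, was at 89.9, 52.1 and 53.9 CPM in controls and 108, 141 and 103 CPM in mutants and rose by 0.84 ± 0.21 (SE, adjusted p = 0.0353). Col16a1 was at 40.8, 25 and 36.1 CPM in controls and 67.2, 57.2 and 53.6 CPM in mutants and rose by 0.80 ± 0.18 (SE, adjusted p = 0.024). Control mouse 1 was the highest control in these 3 chains, and the genotypes did not overlap. The type IX chains, partners in the trimer that coats cartilage fibrils, gave 0 calls, and their log2 fold changes differed in sign. Col9a1 was at 3.27, 1.43 and 2.8 CPM in controls and 3.68, 7.08 and 3.76 CPM in mutants, with a log2 fold change of 0.95 ± 0.37 (SE, adjusted p = 0.114). Col9a2 was at 56.3, 42.1 and 33.1 CPM in controls and 41.3, 40.2 and 36.9 CPM in mutants, with -0.15 ± 0.17 (SE, adjusted p = 0.579). Col9a3 was at 53.6, 44.4 and 55 CPM in controls and 48.8, 57.7 and 38.9 CPM in mutants, with -0.07 ± 0.15 (SE, adjusted p = 0.767), and in both of the latter the genotypes overlapped. Col22a1, a chain of tissue junctions such as that of muscle with tendon, had a log2 fold change of 1.14 ± 0.49 (SE, adjusted p = 0.142), and Col19a1 and Col20a1 had -0.17 and 0.13 with adjusted p of 0.597 and 0.874.

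Of the 7 chains outside these classes, 1 rose, which is near the 8.62% of all genes, and the median was 0.28. Col28a1 (chr6:7997808-8192617), a chain with von Willebrand factor A domains known from peripheral nerve, was at 4.87, 1.55 and 1.2 CPM in controls and 9.74, 35.5 and 25.5 CPM in mutants. Its log2 fold change of 3.21 ± 0.59 (SE, adjusted p = 0.016) was the largest of the 44 chains in this fit, while Col1a1 was larger with limma voom and with the replicate number as a block, under which Col28a1 was not called (3.23, adjusted p = 0.0607). With a mouse left out, the log2 fold change of Col28a1 ranged from 2.79 without Dok6 mutant mouse 2 to 4.09 without control mouse 1, and it was not called without control mouse 2 (2.95, adjusted p = 0.087). Dok6 mutant mouse 1 was the lowest of the mutants at 2.00-fold the highest control, and the other mutant mice lay higher. The summed level of sensory neuron markers had the same order among the mutants, at 197, 143 and 144 CPM in controls and 349, 950 and 909 CPM in the Dok6 mutant mice. Of the Schwann cell markers, Erbb3, at 9.37, 49.8 and 17.9 CPM in mutants, and Cdh19, at 1.86, 9.53 and 3.92 CPM, had that order too. The summed Schwann cell level did not. The part of either cell type in Col28a1 was not tested. Col25a1, a transmembrane collagen of motor neurons needed for muscle innervation, was at 41.7, 42.5 and 45.5 CPM in controls and 33.1, 36.7 and 37 CPM in mutants, with a log2 fold change of -0.28 ± 0.09 (SE, adjusted p = 0.073), and every Dok6 mutant mouse lay below every control mouse. Col23a1, also transmembrane, was at 101, 57.9 and 62.8 CPM in controls and 95.2, 80.2 and 77.1 CPM in mutants, with 0.19 ± 0.20 (SE, adjusted p = 0.532). Col26a1, which is secreted, was at 58.8, 51.1 and 53.7 CPM in controls and 49.9, 56 and 71.1 CPM in mutants, with 0.11 ± 0.13 (SE, adjusted p = 0.589). Col7a1 of anchoring fibrils, Col13a1 of the neuromuscular junction and Col17a1 of hemidesmosomes lay between 0.286 and 11.8 CPM, with log2 fold changes of 1.09, 1.42 and 0.28 and adjusted p of 0.179, 0.154 and 0.697.

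The 250 bases before the start of 3 of these genes are shown 5′ to 3′ from RefSeq on GRCm38.p6, for Col15a1 and Col28a1 because they had the largest changes among the chains that passed the test and for Col27a1 because it was called under all 13 alternatives. None of the windows holds an annotated exon. The RefSeq start of Col27a1 lies 1408 bases inside the gene as GENCODE M21 places it, so its window is within that gene model, whereas that of Col15a1 lies 149 bases upstream of the GENCODE start and that of Col28a1 coincides with it. Capitals mark GGGCGG, the GC box, on either strand, which occurs 1 time in the window of Col27a1, 85 bases before the start, and 0 times in the others.
Col15a1 (chr4:47207762-47208011, plus strand): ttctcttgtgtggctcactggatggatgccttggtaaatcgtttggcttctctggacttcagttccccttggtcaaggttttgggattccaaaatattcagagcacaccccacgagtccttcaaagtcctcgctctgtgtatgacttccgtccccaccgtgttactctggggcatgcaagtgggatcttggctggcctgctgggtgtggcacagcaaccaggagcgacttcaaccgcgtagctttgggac
Col28a1 (chr6:8192618-8192867, minus strand): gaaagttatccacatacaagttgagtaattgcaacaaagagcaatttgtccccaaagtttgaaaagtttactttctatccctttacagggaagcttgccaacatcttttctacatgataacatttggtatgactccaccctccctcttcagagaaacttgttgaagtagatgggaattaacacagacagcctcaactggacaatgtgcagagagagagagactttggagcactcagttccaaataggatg
Col27a1 (chr4:63215162-63215411, plus strand): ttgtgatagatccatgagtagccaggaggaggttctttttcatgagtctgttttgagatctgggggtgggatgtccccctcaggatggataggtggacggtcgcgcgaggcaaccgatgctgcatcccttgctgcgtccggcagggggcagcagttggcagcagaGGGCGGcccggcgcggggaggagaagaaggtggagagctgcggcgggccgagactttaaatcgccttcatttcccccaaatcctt
Of the collagen chains, 35 had an entry, with 38 windows in all. GGGCGG was present in 57.9% of these windows and in 32.7% of the 32851 windows of all genes. CCAAT was present in 34.2% against 33.8%, and TATAAA in 13.2% against 12.4%, each searched on both strands. The 3 windows shown hold neither of these. A match to such letters is a description of the sequence and not a binding site.

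Summed over each class, the levels showed how widely the control mice varied. The fibrillar chains summed to 1186, 473 and 266 CPM in control mice 1 to 3 and 2197, 3280 and 2041 CPM in Dok6 mutant mice 1 to 3. The network chains summed to 159, 82.1 and 71.4 CPM and 368, 282 and 277 CPM. In these classes the genotypes did not overlap, as in the basement membrane class, at 761, 458 and 270 CPM and 773, 889 and 1108 CPM, and the fibril-associated class, at 321, 210 and 225 CPM and 383, 427 and 342 CPM. The other chains overlapped, at 216, 158 and 166 CPM and 204, 215 and 225 CPM.

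Marker lists of the cell types that make or border collagen were read in the same libraries, in which 8.62% of all genes tested rose and 6.01% fell. The 10 fibroblast markers summed to 339, 272 and 274 CPM in the control mice and 471, 364 and 327 CPM in the Dok6 mutant mice, so control mouse 1 lay above Dok6 mutant mouse 3. Pdgfra held most of this sum, at 205, 163 and 182 CPM in controls and 250, 235 and 167 CPM in mutants. The place of control mouse 1 above Dok6 mutant mouse 3 follows largely from this gene. The median log2 fold change of the 9 tested fibroblast markers was 1.00. Of the 9, 3 rose, among them Dpt, which encodes dermatopontin, at 1.89, 0.572 and 0.286 CPM in controls and 9.17, 3.32 and 3.92 CPM in mutants. The Schwann cell markers summed to 444, 278 and 1818 CPM and 1401, 4494 and 562 CPM, with 5 of 9 higher, the endothelial markers to 304, 222 and 180 CPM and 382, 310 and 421 CPM, with 3 of 9 higher, and the mural cell markers to 301, 253 and 215 CPM and 637, 318 and 393 CPM, with 2 of 9 higher. Skeletal muscle markers summed to 48.7, 44.5 and 28.5 CPM in the control mice and 709, 363 and 149 CPM in the Dok6 mutant mice, and 9 of 11 tested were higher, although Tnnc2 was listed at 0 in every library. Of the sensory neuron markers, 9 of 10 were higher. The perineurial markers summed to 143, 142 and 63.4 CPM and 144, 118 and 198 CPM, the meningeal markers to 81.6, 55.6 and 55.6 CPM and 56.5, 74.6 and 105 CPM, and the tendon markers to 12.1, 12.4 and 16.1 CPM and 12.9, 23.6 and 15.2 CPM, so the genotypes overlapped in all 3 lists. Of these, 1 of 7 perineurial markers tested, Ntn4, and 1 of 9 meningeal markers, Foxd1, were higher in the Dok6 mutant (adjusted p = 0.0398 and 0.0305), and 0 of 4 tendon markers passed. In lists this short, 1 call is near the share of all genes that rose. Slc2a1 held most of the perineurial sum, at 110, 118 and 45.8 CPM in controls and 80.8, 72.2 and 158 CPM in mutants. The overlap of that sum follows largely from this gene. The median log2 fold change of the 7 tested perineurial markers was 0.82. The cartilage and bone markers also overlapped, at 25.8, 19.6 and 31 CPM and 25.8, 60.4 and 21 CPM. The macrophage markers summed to 127, 90.2 and 97 CPM and 136, 130 and 128 CPM and the keratinocyte markers to 24.2, 24.2 and 25.8 CPM and 27.6, 19.4 and 18.5 CPM, and 0 of the 7 macrophage and 0 of the 2 keratinocyte markers tested passed by edgeR. Krt14 stayed below 1 CPM in every library, while Krt1 was at 15.7, 17.7 and 17.9 CPM in controls and 13.1, 12.7 and 12.8 CPM in mutants, Krt10 at 7.79, 6.01 and 6.85 CPM in controls and 7.46, 5.72 and 5.24 CPM in mutants and Krt5 at 4.66 CPM in Dok6 mutant mouse 1 and at most 0.0572 CPM in the others. Central nervous system markers summed to 2571, 2402 and 3108 CPM and 3492, 3464 and 2112 CPM, of which Pax2 alone passed the test, lower in the Dok6 mutant. The part of any of these cell types in the collagen levels was not tested.

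**Figure D3:**
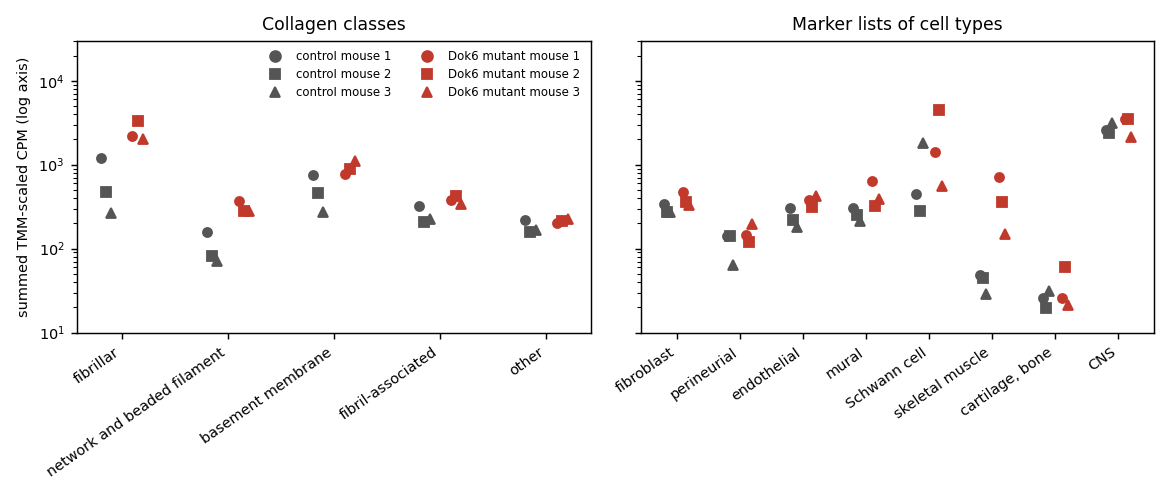
Summed TMM-scaled CPM on a log axis (y) of the 5 collagen classes (left) and of 8 lists of cell type markers (right), with a point for each mouse, grey for control and red for Dok6 mutant. The fibrillar and network classes are separated by genotype, as are the skeletal muscle markers, whereas the Schwann cell and central nervous system markers overlap.

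Chains that share a trimer were compared as ratios within each library, which removes the library size. Levels were taken per kilobase of the gene length given by the authors, so the absolute ratio depends on that length while the difference between mice does not. Type I collagen contains Col1a1 and Col1a2 as 2 to 1, and the ratio of their transcripts was 1.47, 1.02 and 0.452 in control mice 1 to 3 and 2.02, 1.99 and 1.92 in Dok6 mutant mice 1 to 3. The mutants lay within 1.05-fold of each other and above every control, with a difference in mean log2 ratio of 1.17. The ratio of Col5a1 to Col5a2 was 1.34, 0.976 and 1.1 in the control mice and 1.78, 1.54 and 1.71 in the Dok6 mutant mice, a difference of 0.56. That of Col4a1 to Col4a2 was 1.16, 1.13 and 0.847 and 1.31, 1.3 and 1.44, a difference of 0.38. That of Col9a1 to Col9a3 was 0.0463, 0.0245 and 0.0387 and 0.0572, 0.0933 and 0.0733, a difference of 1.05. In these 4 pairs every mutant lay above every control, with p = 0.1 in a two-sided exact permutation test, the smallest that 3 mice against 3 allow, and an adjusted p of 0.15 over the 6 ratios.

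In the type VI pairs the genotypes overlapped. The ratio of Col6a1 to Col6a2 was 2.1, 1.82 and 1.78 in the control mice and 1.98, 1.98 and 2.13 in the Dok6 mutant mice, a difference of 0.10 with p = 0.3 in the exact permutation test (adjusted p = 0.3), and that of Col6a3 to Col6a1 was 0.226, 0.173 and 0.137 and 0.2, 0.293 and 0.289, a difference of 0.56 with p = 0.2 in the same permutation test (adjusted p = 0.24).

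**Figure D4:**
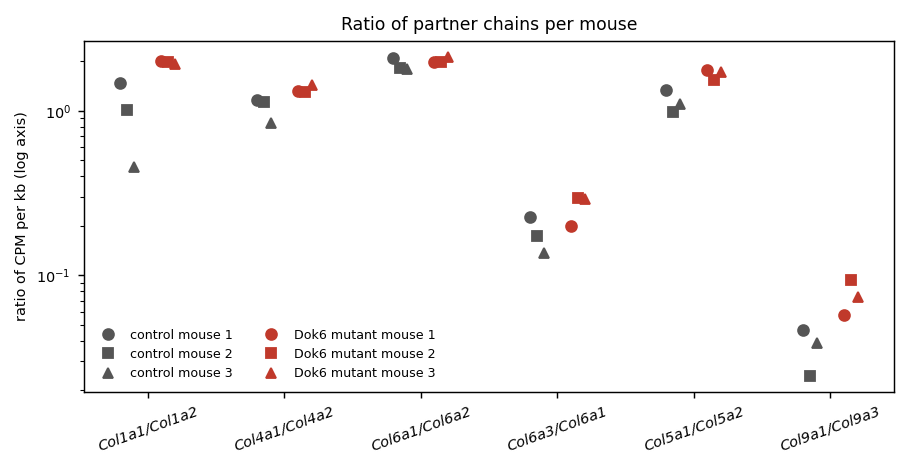
Ratio of the CPM per kilobase of 2 chains of a trimer on a log axis (y) for 6 pairs (x), with a point for each mouse, grey for control and red for Dok6 mutant. The Dok6 mutant mice cluster at 1.92 to 2.02 for Col1a1 over Col1a2, where the control mice range from 0.452 to 1.47, and the genotypes overlap for both type VI ratios.

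Collagen is modified, cut, cross-linked, bound and sensed by other proteins. Of 64 genes with these roles, 59 passed the filter, 22 rose and 0 fell by edgeR, with a median log2 fold change of 0.66. At an unadjusted p below 0.05, 34 were higher and 1 was lower, against 18% and 15.5% of all genes, and DESeq2 also gave 0 lower. By adjusted p 8.62% of all genes rose. Without control mouse 2 the count that rose was 2 (0.318% of all genes), and without Dok6 mutant mouse 2 it was 13 (3.16%). In the endoplasmic reticulum, 6 of 20 genes for folding and modification rose. Serpinh1, the collagen chaperone HSP47, was at 86.2, 51.6 and 58.4 CPM in controls and 160, 181 and 159 CPM in mutants, with a log2 fold change of 1.35 ± 0.17 (SE, adjusted p = 0.00716). P4ha1, a catalytic subunit of prolyl 4-hydroxylase, rose by 1.24 ± 0.21 (SE, adjusted p = 0.013), and Crtap, a part of the prolyl 3-hydroxylation complex, by 0.99 ± 0.13 (SE, adjusted p = 0.00761). Fkbp10, a collagen chaperone of the endoplasmic reticulum, rose by 0.76 ± 0.16 (SE, adjusted p = 0.0229). P4hb and Ppib, which also serve other secreted proteins, had log2 fold changes of 0.10 and -0.08 with adjusted p of 0.375 and 0.558.

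Of the 12 tested genes for processing and cross-linking outside the cell, 5 rose, against 8.62% of all genes. Lox, the lysyl oxidase that starts cross-links, was at 11.6, 5.9 and 2.4 CPM in controls and 28.3, 21.6 and 20.2 CPM in mutants and rose by a log2 fold change of 1.81 ± 0.44 (SE, adjusted p = 0.0316). Pcolce, the enhancer of procollagen C-proteinase, rose by 1.76 ± 0.36 (SE, adjusted p = 0.0212), Loxl1 by 1.73 ± 0.42 (SE, adjusted p = 0.032) and Loxl3 by 1.05 ± 0.17 (SE, adjusted p = 0.0122). Bmp1, the C-proteinase itself, had a log2 fold change of 0.01 and an adjusted p of 0.965. Of the 7 tested small leucine-rich proteoglycans, which coat fibrils and control their growth, 5 rose, with a median of 2.24. Lum was at 2.41, 1.6 and 0.228 CPM in controls and 32.7, 14.1 and 7.57 CPM in mutants and rose by 3.68 ± 0.70 (SE, adjusted p = 0.0173), the largest change among these genes. Aspn rose by 2.80 ± 0.58 (SE, adjusted p = 0.0214), Dcn by 2.28 ± 0.38 (SE, adjusted p = 0.0125) and Ogn by 2.24 ± 0.41 (SE, adjusted p = 0.0153).

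Of the 10 tested genes of collagen breakdown, 1 rose, which is near the 8.62% of all genes. It was the fibroblast protease Fap, at 1.15, 0.286 and 0.4 CPM in controls and 2.02, 4.68 and 1.48 CPM in mutants, with a log2 fold change of 2.15 ± 0.61 (SE, adjusted p = 0.0481). The collagenase Mmp14 and gelatinase Mmp2 had log2 fold changes of 0.58 ± 0.18 (SE, adjusted p = 0.0587) and 1.06 ± 0.32 (SE, adjusted p = 0.059). Of the 10 tested receptors, 5 rose. Adgrg6, a receptor on Schwann cells that binds type IV collagen and is needed for myelination, was at 6.53, 3.84 and 7.71 CPM in controls and 12.3, 30.1 and 19 CPM in mutants and rose by 1.76 ± 0.35 (SE, adjusted p = 0.0193). The collagen-binding integrin chains Itga2 and Itga1 rose by 1.75 ± 0.39 (SE, adjusted p = 0.025) and 0.68 ± 0.14 (SE, adjusted p = 0.02), and Ddr2, a receptor kinase for fibrillar collagen, by 1.43 ± 0.26 (SE, adjusted p = 0.0152). Its relative Ddr1 had a log2 fold change of 0.23 and an adjusted p of 0.259.

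**Figure D5:**
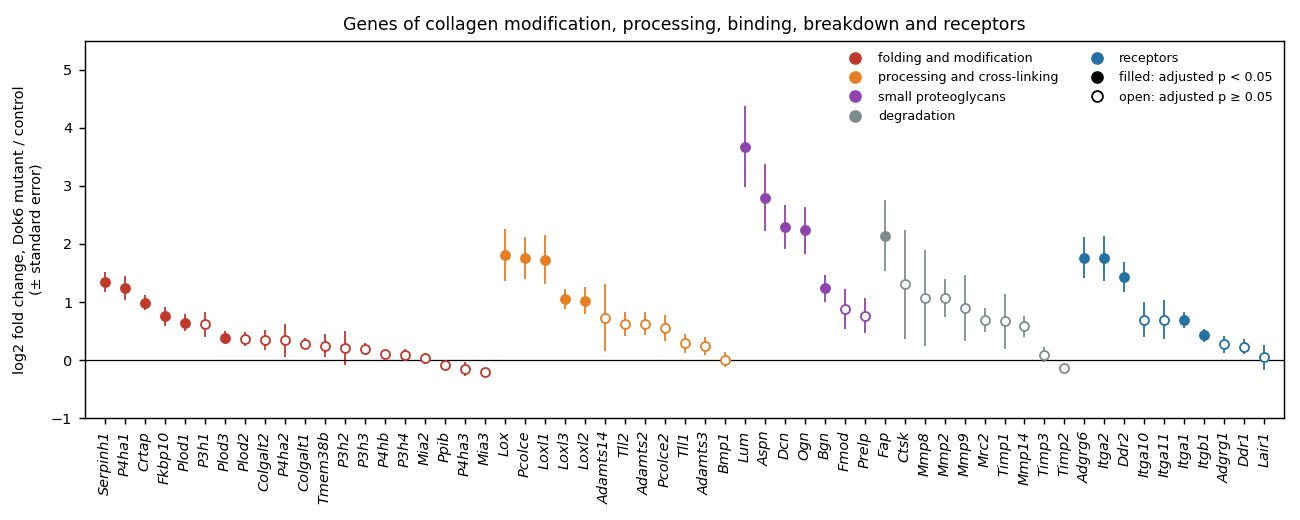
Log2 fold change of Dok6 mutant over control (y axis, points, with the standard error as bars) for the 59 tested genes of collagen modification, processing, binding, breakdown and sensing, ordered by role along the x axis, with filled points for adjusted p below 0.05. The 22 filled points all lie above 0, and the small proteoglycans Lum, Aspn, Dcn and Ogn stand highest.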

How the data were processed

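RNA-seq covered 6 mice, 3 of each genotype, with 1 library each from tissue labelled sciatic nerve. The values the authors deposited are read counts per gene, without normalization. The submitters' processing notes name mm10, and the aligner, the counter and the use of strand are not given in the sources used here. The labels name the NEBNext Ultra RNA kit and the study's methods its directional version. The collagen chains and gene lists were chosen with earlier results of these data known.

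The test was run in edgeR 4.0.16 (R 4.3.3). Genes kept by filterByExpr (17099 of 54532) were scaled by TMM, and the 6 libraries entered 1 quasi-likelihood fit (glmQLFit, glmQLFTest) with genotype as the only term. P-values were adjusted by Benjamini-Hochberg over all genes tested, and the SE was derived from the F statistic. Chains with a mean of at least 10 CPM, an adjusted p below 0.05 or a partner in such a trimer are given per mouse, and of the other lists at most 4 called genes are named, besides genes for comparison that were chosen after their values were seen. Depth was 17699904 to 18678170 counts. P-values measure the spread between these mice. Ratios were compared by two-sided exact permutation tests.

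In simulated counts, edgeR recovered 101 of 102 genes changed by 1.5 on the log2 scale and 97 of 98 changed by 2.5, with 10 false calls among 16883 genes. Every simulated gene was given the same spread between mice, the common dispersion of these data. The recovery therefore does not carry over to chains that varied more between mice, such as Col1a1 and Col3a1. Alternatives were DESeq2 1.42.0, limma voom 3.58.1, a replicate block, leaving out each mouse, a minimum of 10 counts per library, omission of the filter, and scaling by RLE or by the upper quartile. Positions and coding sequences came from GENCODE M21 (44 of 44 chains matched), promoters from RefSeq, and near-identical transcripts from BLAST 2.17.0 at 95% identity over 200 bases. Chain groups follow textbook classes. A marker gene of the lists is not reported here and enters no marker sum.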

Additional observations from a re-analysis of the deposited data

How the results depend on the processing

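The number of collagen chains that rose was 14 and stayed between 14 and 16 under DESeq2, limma voom, RLE and upper-quartile scaling and a minimum of 10 counts, with all 14 called each time except Col5a2 under DESeq2. It was 24 with no filter (6.08% of all genes rose), where the number past a log2 fold change of 1 was 19 instead of 11. Leaving out each mouse gave 1 to 21 chains that rose, 1 to 19 past a log2 fold change of 1, and 2 to 24 of the pathway genes against 22. The number that fell was 0 under every alternative. The mice share replicate numbers but not, by any label, a litter, and the deviations of same-numbered mice correlated at -0.01, -0.17 and -0.24, so the numbers were not taken as pairs. With the replicate block, 9 chains rose, all among the 14, and 13 pathway genes, while 2.53% of all genes rose. No summed class level moved by more than the spread between mice under RLE or upper-quartile scaling. The differences of the partner ratios were compared by sign only. None changed sign with a mouse left out, although that of Col1a1 to Col1a2 ranged from 0.70 to 1.54. Among chains that were not called, the sign of the log2 fold change turned in Col11a2 (0.0022 with a minimum of 10 counts, -0.30 to 0.14 with a mouse left out) and, with a mouse left out, in Col9a2 (-0.31 to 0.072), Col9a3 (-0.22 to 0.062), Col19a1 (-0.28 to 0.0060), Col20a1 (-0.44 to 0.41), Col6a4 (-0.0083 to 0.90), Col6a5 (-0.21 to 1.04), Col26a1 (-0.043 to 0.22) and Col17a1 (-0.11 to 0.66). The cause was not tested. Depth limits chains under about 1 CPM, such as Col4a3.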
